A study of Homo sapiens with 8 samples.

Results

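The linker histone H1 family was followed through RNA-seq of H9 cells, an established human embryonic stem cell (hESC) line, as the 6 genes H1-1, H1-2, H1-3, H1-4, H1-5 and H1-10 among the 57773 genes counted. The genes were taken by name, and the family was chosen by a readout of these same libraries, the low counts of H1-1 in CHD7 knockout cells. The values of H1-1 in that condition are therefore given as a description with no test. The question asked of the other 5 genes was whether any of them was higher where H1-1 was low. There were 8 libraries, 2 for each of 4 conditions. WT cells carried an HA tag on CHD7 and were untreated. CHD7 knockout cells had the genotype CHD7 -/- and were untreated. Per the study, a stop codon and an InDel in exon 2 were made and the stop codon mutant was used for later experiments; the labels name neither. HERVH knockdown cells were the tagged WT cells 24 h after treatment with LNA-GapmeRs, antisense oligonucleotides against HERVH RNA, and were compared with untreated cells. HERVH element deleted cells lacked 1 HERVH element on chromosome 2, and the clone behind each library is not given. The labels do not say that replicates were separate cultures, so the p-values measure the spread between these libraries, which may be technical.

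Linker histones bind the nucleosome where DNA enters and leaves it, and help to fold chains of nucleosomes into more compact chromatin. Most human H1 genes are short, have no intron and lie in the histone clusters of chromosome 6; they are transcribed mainly in S phase, and their mRNAs end in a hairpin and not in a poly(A) tail. H1-10 lies outside these clusters and is expressed independently of replication. HERVH is a family of endogenous retroviruses whose RNA is abundant in human embryonic stem cells, and CHD7 is an ATP-dependent chromatin remodeler. The libraries were depleted of rRNA, so mRNAs without a poly(A) tail could be counted.

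On GRCh37, H1-1 (ENSG00000124610, HIST1H1A in the annotation used for counting) lies at chr6:26017260-26018015 on the minus strand. H1-2 (HIST1H1C) lies at chr6:26055968-26056698, H1-3 (HIST1H1D) at chr6:26234440-26235215 and H1-5 (HIST1H1B) at chr6:27834570-27835366, all on the minus strand. H1-4 (HIST1H1E) lies at chr6:26156557-26157343 on the plus strand. H1-10 (H1FX) lies at chr3:129033614-129035129 on the minus strand and overlaps the antisense gene H1-10-AS1 over 895 bases; the antisense gene had 58 to 145 counts per library, and the strand setting of the counting is not stated. Each of the 6 genes is a single exon, of 731 to 797 bases on chromosome 6 and of 1516 bases for H1-10. They code for 213 to 226 amino acids.

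The coding sequences were alike without being identical. Coding identity ranged from 77.3% to 81.0% among H1-2, H1-3, H1-4 and H1-5, from 70.0% to 73.4% between H1-1 and those 4 genes, and from 61.1% to 67.6% between H1-10 and the rest. The longest run of bases shared by any pair was 37 bases, between H1-4 and H1-5, and no window of 50 bases in any of the 6 transcripts occurred in another gene of the family that was searched. H1-1 shared at most 26 bases with another of the 6, namely H1-4.

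The promoters of the 5 genes on chromosome 6 are shown because H1-1 differs from the other 4 in the arrangement of the motifs marked below. The runs below are the 200 bases before the RefSeq transcription start, 5′ to 3′ on the strand of the gene, each found once and without mismatch in GRCh37. Capitals mark AAACACA (the H1 box, an element described in H1 promoters), CCAAT (bound by NF-Y) and TATAAA (the TATA box), searched on both strands; no motif overlaps another.
H1-1: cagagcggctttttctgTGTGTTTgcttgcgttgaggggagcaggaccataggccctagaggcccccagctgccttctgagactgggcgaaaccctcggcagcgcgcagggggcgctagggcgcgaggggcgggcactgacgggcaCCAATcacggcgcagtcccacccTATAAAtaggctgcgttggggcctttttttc
H1-2: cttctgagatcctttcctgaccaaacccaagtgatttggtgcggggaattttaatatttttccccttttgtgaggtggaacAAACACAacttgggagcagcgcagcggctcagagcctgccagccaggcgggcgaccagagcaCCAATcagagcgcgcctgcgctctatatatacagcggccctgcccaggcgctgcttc
H1-3: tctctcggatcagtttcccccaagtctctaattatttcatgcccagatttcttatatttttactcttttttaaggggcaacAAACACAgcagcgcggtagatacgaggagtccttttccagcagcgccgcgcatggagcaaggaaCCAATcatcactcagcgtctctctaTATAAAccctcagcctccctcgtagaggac
H1-4: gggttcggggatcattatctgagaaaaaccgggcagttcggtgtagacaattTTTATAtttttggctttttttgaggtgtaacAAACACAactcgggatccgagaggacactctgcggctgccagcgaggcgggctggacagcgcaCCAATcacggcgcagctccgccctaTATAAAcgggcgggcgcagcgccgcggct
H1-5: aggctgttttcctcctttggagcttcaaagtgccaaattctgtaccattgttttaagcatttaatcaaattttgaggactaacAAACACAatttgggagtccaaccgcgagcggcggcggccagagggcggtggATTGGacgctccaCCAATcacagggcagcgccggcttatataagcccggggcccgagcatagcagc
The positions on GRCh37 are chr6:26018016-26018215 (H1-1, minus strand), chr6:26056699-26056898 (H1-2, minus strand), chr6:26235216-26235415 (H1-3, minus strand), chr6:26156357-26156556 (H1-4, plus strand) and chr6:27835367-27835566 (H1-5, minus strand).

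In H1-2, H1-3, H1-4 and H1-5 an H1 box lay on the strand of the gene with its first base 117 to 119 bases before the start. In H1-1 the only match was on the opposite strand at -183. A CCAAT box on the strand of the gene stood at -57 to -53 in all 5 promoters. TATAAA lay at -31 to -29 in H1-1, H1-3 and H1-4, and these letters were not found at that place in H1-2 and H1-5. In H1-10 only TATAAA was found, at -31. Over the whole window of 300 bases, which adds the 50 bases before and the 50 bases after those printed, AAACACA was in 5 of the 6 genes and in 5.64% of 35116 RefSeq promoters of the same length. CCAAT was in 5 of 6 and in 34.6% of all promoters, and TATAAA in 4 of 6 and in 11.5%. These matches describe letters and do not show binding.

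**Figure D1:**
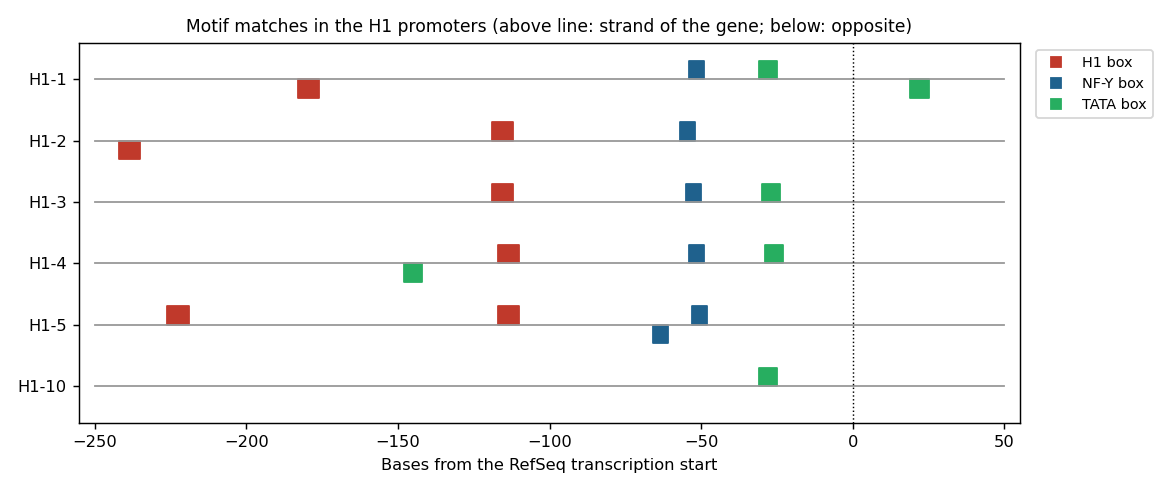
Matches of 3 motifs in the promoters of the 6 H1 genes; the x axis is the distance in bases from the RefSeq transcription start, and boxes above a line are on the strand of the gene and boxes below it on the opposite strand. The H1 box sits at -119 to -117 in H1-2, H1-3, H1-4 and H1-5, at -183 on the opposite strand in H1-1, and has no match in H1-10.

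The hairpins at the mRNA ends are shown because they mark the replication-dependent H1 mRNAs. They were found as 6 paired bases around a loop of 4 within 100 bases after the stop codon, and capitals mark the hairpin.
H1-1: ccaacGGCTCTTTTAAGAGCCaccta
H1-2: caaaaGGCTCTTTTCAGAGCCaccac
H1-3: taaacGGCTCTTTTCAGAGCCaccca
H1-4: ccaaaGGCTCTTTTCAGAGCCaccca
H1-5: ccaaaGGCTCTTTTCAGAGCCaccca
The hairpin of 16 bases was the same in 4 of these genes, and H1-1 differed from them by C10A, counted from 1 at the 5′ end of the hairpin, with the base of the other 4 genes first. No such hairpin was found in that window of H1-10. The printed runs, which hold the hairpin and the flanking bases in small letters, lie at chr6:26017260-26017285 for H1-1, chr6:26055967-26055992 for H1-2, chr6:26234440-26234465 for H1-3, chr6:26157318-26157343 for H1-4 and chr6:27834570-27834595 for H1-5 on GRCh37.

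Reads counted on genes ranged from 14802049 to 23156445 per library, so that 3 counts were worth 0.128 to 0.218 CPM; this floor covers counting error only. CPM is the count relative to the library total after TMM scaling. CHD7 RNA had 651.0 and 649.5 CPM in WT and 197.3 and 197.2 CPM in CHD7 knockout libraries. It had 625.6 and 514.3 CPM in HERVH knockdown and 710.6 and 690.5 CPM in HERVH element deleted libraries, so the knockout label matched its gene. Of the pluripotency markers POU5F1, SOX2, NANOG, LIN28A, DNMT3B and TDGF1, 6 of 6 were detected in every library. None was called in a comparison with WT, where at most 0.571% of all genes tested were called. Of 8 markers of differentiated cells, SOX1, TBXT, HAND1, GATA6 and SOX17 had at most 10 counts in any library. AFP had 0.554 to 2.11 CPM, PAX6 0.878 to 3.21 CPM and COL1A1 53.5 to 269.1 CPM, the last in HERVH knockdown replicate 2. In these bulk samples, fewer cells expressing a gene and less RNA per cell cannot be told apart.

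Compared per length, as CPM per kb of exon, H1-5, H1-2 and H1-4 were the most abundant H1 mRNAs in WT cells, at 505.2 ± 28.3, 493.8 ± 103.8 and 447.2 ± 159.2 CPM per kb (SD, n = 2), and their libraries overlapped. H1-3 followed at 201.4 ± 47.9, H1-1 at 109.4 ± 3.20 and H1-10 at 57.8 ± 13.0 CPM per kb, with no overlap between these neighbours. In CHD7 knockout cells H1-5, H1-2 and H1-4 again came first, at 421.9 ± 70.4, 347.6 ± 37.6 and 311.8 ± 18.5 CPM per kb, with overlap between neighbours. There H1-1 was last, at 1.73 ± 0.233 CPM per kb, below H1-10 at 50.02 ± 7.51. In HERVH knockdown cells H1-1, at 102.6 ± 27.1 CPM per kb, came before H1-3, at 83.4 ± 45.6, but the libraries of the pair overlapped. In HERVH element deleted cells H1-4 came first, at 583.6 ± 50.5 CPM per kb, above H1-5 at 488.3 ± 0.0665, and no neighbours in the order overlapped.

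Reads counted on H1-1 were 1754 and 1805 in WT, 31 and 22 in CHD7 knockout, 1152 and 1264 in HERVH knockdown and 1593 and 1383 in HERVH element deleted. In CPM these were 81.0 and 84.4 in WT, 1.43 and 1.18 in CHD7 knockout, 63.1 and 92.1 in HERVH knockdown, and 68.1 and 74.6 in HERVH element deleted libraries. The CHD7 knockout libraries stood apart from the other 6, and reads on the gene were still above the floor of 3 counts in both. The fitted log2 fold change in CHD7 knockout against WT was -5.97 (SE 0.256), or 62.6-fold lower; it was -5.76 (SE 0.255) against HERVH element deleted and -5.87 (SE 0.256) against HERVH knockdown. These 3 comparisons share the CHD7 knockout libraries. In HERVH knockdown against WT, H1-1 had a log2 fold change of -0.09 (95% interval -0.50 to 0.31, FDR = 0.828, edgeR quasi-likelihood test). In HERVH element deleted against WT it was -0.21 (-0.62 to 0.19, FDR = 1, same test). Both tests use the WT libraries that were also 1 side of the comparison behind the choice of the family.

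**Figure D2:**
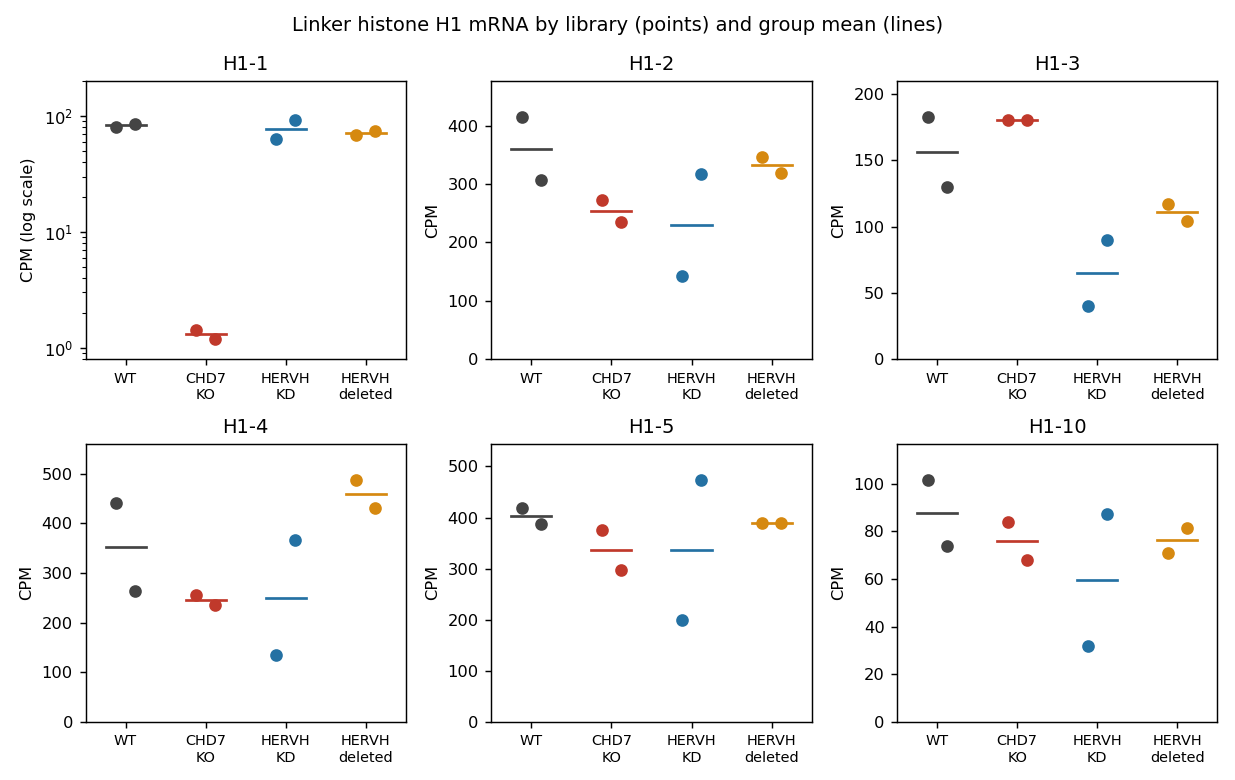
CPM of each H1 gene in each library (points) and group mean (lines) for the 4 conditions, on a log axis for H1-1 and on linear axes from 0 for the rest. H1-1 is at 1.43 and 1.18 CPM in CHD7 knockout libraries and at 63.1 to 92.1 CPM in all others, while H1-3 is lowest in HERVH knockdown libraries.

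None of the other 5 H1 genes was called in CHD7 knockout against WT, where 0.571% of the 23474 genes tested were called, meaning an FDR below 0.01 together with a 2-fold or larger change. In that fit no unadjusted p of the 5 was under 0.05 either, and DESeq2's Wald test called 0 of them among 271 genes in all. One gene, H1-3, had a positive log2 fold change and 4 had a negative one, with a median of -0.26 beside -0.01 over all genes tested. H1-2, H1-4 and H1-5 were lower in both CHD7 knockout libraries than in both WT libraries, and H1-3 and H1-10 overlapped; 22.4% of all genes tested were likewise lower without overlap. The spread in this fit is shared with the HERVH knockdown libraries, which differed most from each other for these genes. With the WT and CHD7 knockout libraries alone, H1-2 had the same log2 fold change of -0.51 with an FDR of 0.0278, and without HERVH knockdown replicate 1 or replicate 2 its FDR was 0.0167 or 0.0118. H1-4 had FDR = 0.0656 with the 4 libraries alone and 0.0414 without HERVH knockdown replicate 2. Both changes are under 2-fold in these fits, and both are downward.

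H1-3 is the member with the positive value. It had 182.6 and 130.1 CPM in WT libraries, 180.3 and 180.2 CPM in CHD7 knockout, 39.7 and 89.7 CPM in HERVH knockdown, and 117.3 and 104.2 CPM in HERVH element deleted libraries. Its CHD7 knockout values lay between those of the 2 WT libraries. The log2 fold change in CHD7 knockout against WT was 0.21 (SE 0.276, 95% interval -0.39 to 0.80, FDR = 0.894), which leaves changes from 0.764-fold to 1.74-fold within the interval; without WT replicate 2 the value was -0.022.

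H1-2 had 414.7 and 307.3 CPM in WT, 273.5 and 234.6 CPM in CHD7 knockout, 142.0 and 317.7 CPM in HERVH knockdown, and 346.3 and 319.1 CPM in HERVH element deleted libraries. H1-4 had 440.5 and 263.4 CPM in WT, 255.7 and 235.1 CPM in CHD7 knockout, 134.1 and 366.7 CPM in HERVH knockdown, and 487.4 and 431.2 CPM in HERVH element deleted libraries. Both genes were lower in the CHD7 knockout libraries than in WT, by less in mean CPM than the WT libraries differed from each other. Their log2 fold changes in CHD7 knockout against WT were -0.51 (SE 0.274, 95% interval -1.10 to 0.08, FDR = 0.574) and -0.52 (SE 0.337, -1.25 to 0.20, FDR = 0.689). They rested on the WT libraries: without WT replicate 1 they were -0.25 and -0.073, and without WT replicate 2 they were -0.71 and -0.85.

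H1-5 had 418.6 and 386.7 CPM in WT, 376.0 and 296.6 CPM in CHD7 knockout, 198.6 and 473.5 CPM in HERVH knockdown, and 389.2 and 389.1 CPM in HERVH element deleted libraries. H1-10 had 101.5 and 73.8 CPM in WT, 83.9 and 67.8 CPM in CHD7 knockout, 31.9 and 87.2 CPM in HERVH knockdown, and 71.0 and 81.5 CPM in HERVH element deleted libraries. The lowest level of both genes was in HERVH knockdown replicate 1. In CHD7 knockout against WT the log2 fold changes were -0.26 (SE 0.279, 95% interval -0.86 to 0.34, FDR = 0.858) for H1-5 and -0.21 (SE 0.326, -0.91 to 0.49, FDR = 0.911) for H1-10; without WT replicate 1 the value of H1-10 was 0.069.

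**Figure D3:**
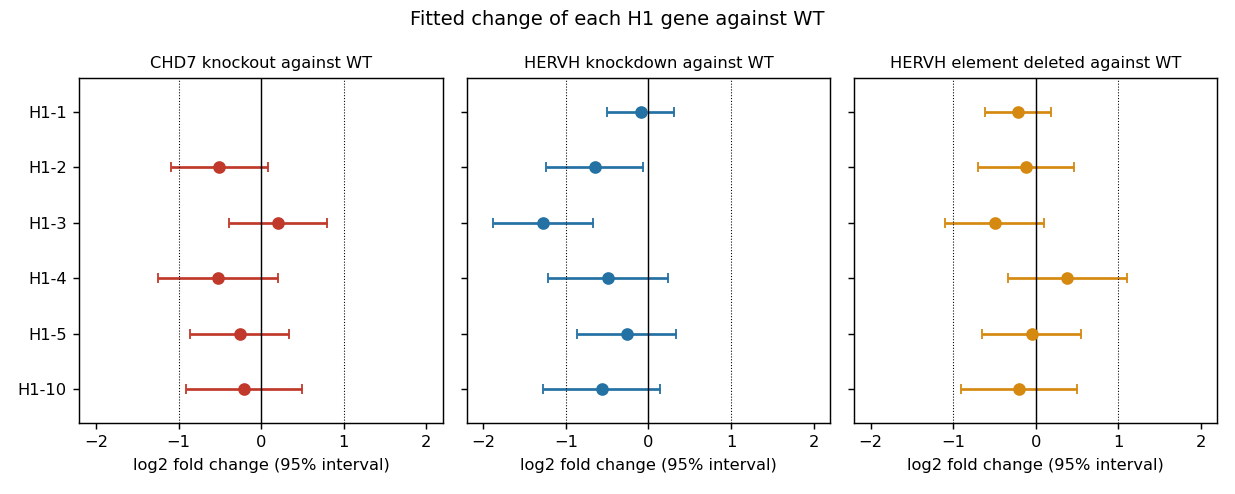
Fitted log2 fold change of each H1 gene against WT in the 3 conditions, with 95% intervals from the edgeR quasi-likelihood fit; dotted lines mark a 2-fold change. H1-1 in CHD7 knockout is not drawn, and the interval of H1-3 in HERVH knockdown, from -1.89 to -0.67, is the one farthest from 0.

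The mRNA rise that would make up for H1-1, if shared by all the other 5 genes, was smaller than the SE of each. H1 protein was not measured. H1-1 was 82.7 ± 2.42 CPM in WT and 1.31 ± 0.176 CPM in CHD7 knockout cells (SD, n = 2), a difference of 81.4 CPM. The other 5 genes summed to 1360 ± 280.6 CPM in WT, so a rise of 5.99% in all of them, or 0.084 on the log2 scale, would equal that difference. The smallest SE of a single gene among the 5 was 0.274, and 0.110 without HERVH knockdown replicate 2. In the main fit, the 95% interval of H1-2 ended at 0.082, just under the rise of 0.084. The intervals of H1-3, H1-4, H1-5 and H1-10 included it. Without HERVH knockdown replicate 2, H1-2 was at -0.51, H1-4 at -0.52, H1-5 at -0.26, H1-10 at -0.21 and H1-3 at 0.20. A rise shared by the 5 genes was not tested. The measured sum of the 5 was 1092 ± 109.6 CPM in CHD7 knockout cells, 80.3% of the WT mean; the 2 knockout libraries had 1169 and 1014 CPM and the WT libraries 1558 and 1161 CPM, and the groups overlapped.

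H1-1 made up 5.20% and 7.12% of the summed CPM per kb of the 6 genes in WT, 0.130% and 0.123% in CHD7 knockout, 10.8% and 6.80% in HERVH knockdown, and 4.82% and 5.61% in HERVH element deleted libraries. With H1-1 left out of the sum, H1-3 made up 12.04% and 11.5% of the rest in WT, 15.9% and 18.3% in CHD7 knockout, 7.46% and 6.93% in HERVH knockdown and 8.50% and 8.08% in HERVH element deleted libraries. The share of H1-3 thus did not overlap between any of the 4 conditions, and it was highest in CHD7 knockout. Between 2 conditions, 38% to 49.9% of all genes tested did not overlap in CPM. That background covers CPM and pairs of conditions. None was computed for shares or for all 4 conditions at once. The CPM of H1-3 in CHD7 knockout, 180.3 and 180.2, lay between the 182.6 and 130.1 CPM of the WT libraries. The mean sum of the 5 genes was lower there, at 1092 CPM against 1360 CPM in WT. H1-4 made up 28.6% and 23.0% of that sum in WT and 34.8% and 33.0% in HERVH element deleted libraries. The shares of H1-10 lay between 2.63% and 3.79% in all 8 libraries. No test was made of these shares, which depend on each other within a library.

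**Figure D4:**
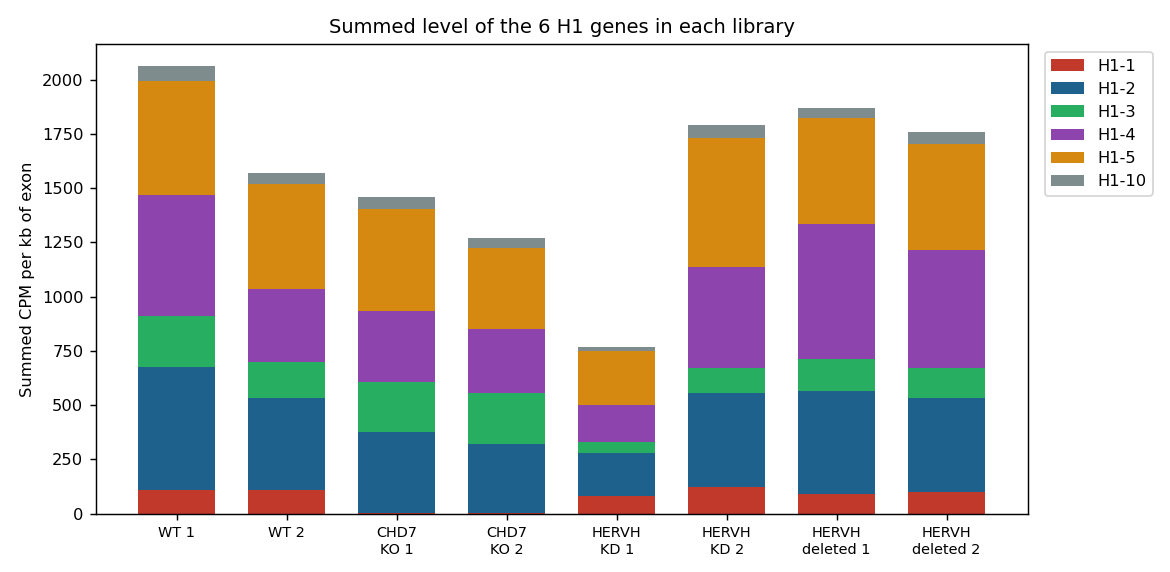
Summed level of the 6 H1 genes in each library, in CPM per kb of exon, stacked by gene from an axis that starts at 0. HERVH knockdown replicate 1 has the lowest sum, 769.5 CPM per kb, and replicate 2 of the same condition has 1790; the H1-1 layer is 0.130% and 0.123% of the sum in CHD7 knockout libraries.

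In HERVH knockdown against WT, 0 of the 6 genes were called, where 0.217% of all genes tested were called; the unadjusted p was under 0.05 for 2 of them, H1-2 and H1-3, and DESeq2's Wald test called 1, H1-3, among 344 genes. All 6 values were negative, with a median log2 fold change of -0.53 beside 0.04 over all genes tested. Of the 3 markers of differentiated cells that were tested, 2 had an unadjusted p under 0.05 in the same comparison, and none was called. These were AFP at 1.68 (FDR = 0.113) and COL1A1 at 1.26 (FDR = 0.0653). PAX6 went the other way, at -0.45 (FDR = 0.658). AFP had 1.81 and 2.11 CPM in the knockdown and 0.554 and 0.655 CPM in the WT libraries. COL1A1 had 93.6 and 269.1 CPM in the knockdown and 83.6 and 67.5 CPM in the WT libraries. The part of these markers in the H1 values was not tested. H1-3 was lower in both knockdown libraries than in both WT libraries, with a log2 fold change of -1.28 (SE 0.283, 95% interval -1.89 to -0.67, FDR = 0.0357), and the other 5 genes overlapped; 22.3% of all genes were lower without overlap. H1-2 followed with -0.65 (SE 0.274, -1.24 to -0.06, FDR = 0.217), H1-10 with -0.56 (FDR = 0.375), H1-4 with -0.49 (FDR = 0.455) and H1-5 with -0.26 (FDR = 0.649). These counts depended on single knockdown libraries. Without replicate 2, 5 of the 6 genes were called, all but H1-1, among 533 genes in all, with log2 fold changes from -1.98 for H1-3 to -1.03 for H1-5. Without replicate 1 none of the 6 was called among 825 genes, and H1-3 was at -0.85. In both fits the lone knockdown library is assumed to vary like the libraries of the other groups. With only the WT and knockdown libraries in the fit, the FDR of H1-3 was 0.103.

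The 2 HERVH knockdown libraries differed from each other by more than the fitted change against WT for 5 of the 6 genes, all but H1-3. Replicate 2 was higher than replicate 1 for each of the 6, by 1.46-fold for H1-1, 2.24-fold for H1-2, 2.26-fold for H1-3, 2.38-fold for H1-5, 2.73-fold for H1-4 and 2.74-fold for H1-10. In WT, replicate 1 was the higher one for 5 genes, by 1.08-fold for H1-5 up to 1.67-fold for H1-4, and H1-1 differed by 1.04-fold. In CHD7 knockout and HERVH element deleted libraries the genes differed by at most 1.27-fold between replicates. H1-1 was the member that differed least between knockdown replicates. The libraries also differed in their relation of counts to GC content. At the exonic GC content of the 6 genes, 51.7% for H1-1 up to 68.6% for H1-10, a trend over all genes put knockdown replicate 2 above replicate 1 by 0.18 (H1-1) to 1.11 (H1-10) on the log2 scale, beside measured differences of 0.55 and 1.45. Of the difference, 0.34 was left for H1-10 and 0.95 for H1-3 after taking the trend away. With a GC correction of all libraries, 2 of the 6 genes were called in HERVH knockdown against WT among 332 genes in all, H1-3 at -1.38 (FDR = 0.00145) and H1-10 at -1.001 (FDR = 0.00419).

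**Figure D5:**
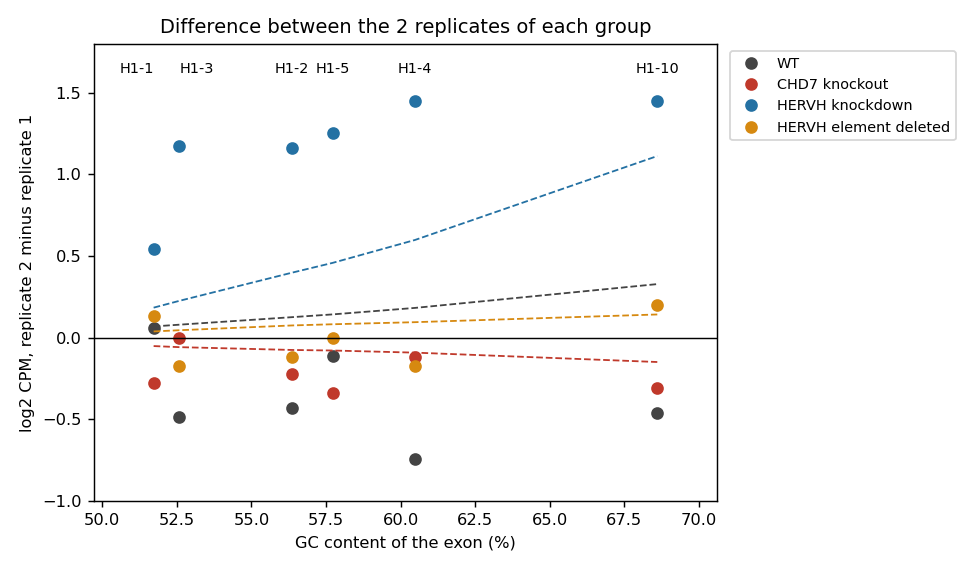
Difference in log2 CPM between replicates 2 and 1 of each condition (points, 1 for each H1 gene) against the GC content of its exon in percent; dashed lines join the difference expected from the GC trend over all genes. The HERVH knockdown points, at 0.55 to 1.45, lie above their dashed line, and the WT points other than H1-1 lie below 0.

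In HERVH element deleted against WT, edgeR called 0 of the 6 genes and 0.0298% of all genes. DESeq2 called 0 of the 6 among 14 genes in all. In the edgeR fit, none of the 6 had an unadjusted p under 0.05. H1-4 had the one positive log2 fold change, 0.38 (95% interval -0.34 to 1.11), and H1-3 the lowest, -0.50 (-1.09 to 0.10), each with FDR = 1. Without WT replicate 1 the value of H1-4 was 0.83, and without WT replicate 2 it was 0.061. H1-1 and H1-3 were lower in both deleted libraries than in both WT libraries, as were 20.3% of all genes.

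The 3 altered conditions were also compared with each other. In CHD7 knockout against HERVH knockdown, 1 of the 5 genes other than H1-1 was called, where 2.66% of all genes were called. This was H1-3, which was higher in CHD7 knockout by a log2 fold change of 1.48, or 2.79-fold (SE 0.284, 95% interval 0.87 to 2.09, FDR = 0.00632), with 180.3 and 180.2 CPM against 39.7 and 89.7 CPM. The call was lost without CHD7 knockout replicate 1 (1.51, FDR = 0.0335) or replicate 2 (1.53, FDR = 0.0381) and with only these 4 libraries in the fit (1.48, FDR = 0.0246), at folds as large as before. Without HERVH knockdown replicate 2 the value was 2.19 and 2 of the 5 genes were called, H1-3 and H1-10, among 883 genes in all. The remaining 4 genes had log2 fold changes between -0.03 and 0.35.

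In CHD7 knockout against HERVH element deleted, edgeR called 0 of the 5 genes other than H1-1 and 1.12% of all genes. DESeq2 called 0 of the 5 among 388 genes in all. In the edgeR fit, 2 of the 5 had an unadjusted p under 0.05. H1-4 was at -0.90 (95% interval -1.63 to -0.18, FDR = 0.246) and H1-3 at 0.70 (0.10 to 1.30, FDR = 0.289), and in both the libraries of the groups did not overlap, as held for 49.1% of all genes. At nearly the same values, the FDR was 7.2e-08 for H1-4 and 9.5e-06 for H1-3 with only these 4 libraries in the fit, and 0.000418 and 0.00128 without HERVH knockdown replicate 1; in those fits the genes are not called because the change is under 2-fold. In HERVH knockdown against HERVH element deleted, edgeR called 0 of the 6 and 0.204% of all genes, and DESeq2 called 0 of the 6. In the edgeR fit, 2 had an unadjusted p under 0.05, H1-4 at -0.88 (FDR = 0.189) and H1-3 at -0.78 (FDR = 0.165). Without HERVH knockdown replicate 2, 4 of the 6 genes were called in that comparison, among 264 genes in all.

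The family genes H1-6, H1-7, H1-8 and H1-9P had few or no reads. H1-6, a testis variant, had 3 to 16 counts per library and log2 fold changes against WT of -0.92 in CHD7 knockout, -0.77 in HERVH knockdown and -0.30 in HERVH element deleted cells, none of them called. H1-7, also a variant of the testis, had 5 counts or fewer, H1-8, the oocyte variant, 2 or fewer, and the pseudogene H1-9P had 0 counts in each library.

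Of 9 genes placed within 50 kb of H1-1, 4 were tested. None of the 4 was called in CHD7 knockout against WT, where 0.571% of all genes tested were called. The nearest, the histone pseudogene H3P26 at 431 bases, was not tested; its CHD7 knockout libraries held 6 and 0 counts, against 9 and 6 for WT. TRIM38, a ubiquitin ligase gene 25801 bases away, had 7.39 and 3.46 CPM in WT and 13.6 and 15.7 CPM in CHD7 knockout libraries, a log2 fold change of 1.43 (SE 0.348) that was not called (FDR = 0.0575). HIST1H4B, a gene for core histone H4 at a distance of 9109 bases, had 117.9 and 142.0 CPM in WT and 110.0 and 100.5 CPM in CHD7 knockout libraries (log2 fold change -0.30, FDR = 0.867). The long noncoding RNA gene LINC02980 was at 0.80 (FDR = 0.643), and H1-2, at 37953 bases, is given above. Genes of the cluster that the annotation could not place are not in this count.

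Genes with functions tied to H1 had no calls against WT. Of all genes tested, 0.571% were called in CHD7 knockout, 0.217% in HERVH knockdown and 0.0298% in HERVH element deleted cells. At these shares, the lack of calls in lists this short says little about them. The list for transcription and 3′ processing of histone mRNA, which holds NPAT, SLBP, which binds the hairpin, and the NF-Y subunits, had 15 of 15 genes tested and 0 called in each of the 3 comparisons, with median log2 fold changes of -0.0033 in CHD7 knockout, -0.015 in HERVH knockdown and -0.0082 in HERVH element deleted cells. Its largest changes were LSM10 at -0.30, ERI1 at 0.35 and LSM11 at -0.28, in the same order; LSM10 and LSM11 belong to the U7 snRNP that cuts histone mRNA, and ERI1 is an exonuclease that trims its end. The list of H1 chaperones and of HMG proteins, which compete with H1 for the nucleosome, had 14 of 14 tested and 0 called, with medians of 0.0083, -0.08 and 0.17. HMGN5 had the largest change in CHD7 knockout, 0.85 (FDR = 0.287), and in HERVH element deleted, 0.61, and HMGB2 in HERVH knockdown, -0.57 (FDR = 0.181).

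S phase genes were counted because most H1 genes are transcribed in that phase. As for the lists above, a lack of calls in so short a list says little. Of 15 genes, among them SLBP from the list above, 15 were tested and 0 were called in each comparison, with median log2 fold changes of -0.09 in CHD7 knockout, 0.23 in HERVH knockdown and 0.11 in HERVH element deleted cells, beside -0.01, 0.04 and -0.02 over all genes. E2F1, a transcription factor of the G1 to S transition, was at -0.44 in CHD7 knockout, and CCNE2, a cyclin of that transition, at 0.62 in HERVH knockdown and 0.41 in HERVH element deleted cells. Their summed level was 3308 and 3752 CPM in HERVH knockdown, 2794 and 3298 CPM in WT, 3193 and 2614 CPM in CHD7 knockout, and 3109 and 3242 CPM in HERVH element deleted libraries. In HERVH knockdown, where the H1 values were negative, the S phase sum of replicate 1 was nearly level with the higher WT library (3308 and 3298 CPM). Replicate 2 was above both WT libraries. The part of the S phase sum in the H1 values was not tested.

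The genes whose levels ran most like H1-1 over the 8 libraries, among 12703 tested genes with a mean log2 CPM of at least 2, were ZNF619 (Pearson's r 0.996), MAP1LC3B (0.995), ATP9A (0.994), TEK (0.988) and RIN3 (0.988). The points are libraries of which 2 are of CHD7 knockout, and all 5 genes were lowest in those 2. ZNF619, a zinc finger gene, had 10.5 and 8.37 CPM in WT and 0.693 and 0.592 CPM in CHD7 knockout libraries, and TEK, the angiopoietin receptor, 26.3 and 27.5 against 2.73 and 2.58 CPM. MAP1LC3B, an autophagy gene, had 69.6 and 65.7 against 39.2 and 35.8 CPM. For the other 5 H1 genes r lay between -0.50 for H1-3 and 0.33 for H1-4; all of these values follow mainly the 2 CHD7 knockout libraries on which the family was chosen.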

How the data were processed

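RNA was measured in 8 libraries of H9 cells, grouped by their labels. Per the labels and the methods, the authors removed rRNA, kept strand information, aligned with STAR to hg19 and used HTSeq to count reads per gene; versions and the strand setting are not given in the sources used here. The deposited values are counts, whole numbers without normalization. From these counts, CPM and tests were computed with R 4.3.3 and edgeR 4.0.16 (TMM scaling, filterByExpr, which left 23474 genes, and the quasi-likelihood test on all 8 libraries, with group alone in the design, leaving 4 residual degrees of freedom), after the procedure had been tested on simulated data. A gene was called when its FDR (Benjamini-Hochberg, all tested genes) was below 0.01 and its change 2-fold or larger. The log2 CPM used a prior count of 2. GENCODE placed 96.1% of the genes on GRCh37; promoters came from RefSeq (GRCh38.p14), matched for 6 of 6 genes and given their GRCh37 positions by exact match. Coding sequences were aligned with Biopython 1.88. The 6 genes and all lists were chosen with earlier results of these data known. Named were all members, the largest change of each list, tested genes within 50 kb of H1-1 and the 5 genes most like it. A further gene that the family name covers is not reported here. Alternatives were RLE scaling, DESeq2 1.42.0, fits of the 2 groups compared, other filters, a replicate block, an FDR below 0.05, a GC correction by loess with a span of 0.3, and each library left out in turn; the block together with the GC correction and a crossed block were added after seeing the data.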

Additional observations from a re-analysis of the deposited data

How the results depend on the processing

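A rise of 0.084 on the log2 scale in all the other 5 genes would offset the lower H1-1 mRNA. With 2 libraries per group, that rise is smaller than the SE of each single gene in the main fit. A rise confined to 1 gene would have to be larger, and its size was not computed. The HERVH knockdown libraries limit every value that uses them. No member other than H1-1 was called in CHD7 knockout against WT or against HERVH element deleted cells, and none in HERVH element deleted against WT, under the alternatives run. In HERVH knockdown against WT, 1 gene was called with DESeq2, with no filter, at an FDR below 0.05 and with the replicate block and GC correction together, 2 with the GC correction alone, and 0 to 5 with 1 library left out. In CHD7 knockout against HERVH knockdown the count was 0 with only the 2 groups fitted and 0 to 2 with 1 library left out. In HERVH knockdown against HERVH element deleted it was 1 with the GC correction, with or without the block, and 0 to 4 with 1 library left out. Over all genes, HERVH knockdown against WT had 51 calls in the main fit, 344 with DESeq2 and 506 with no filter. It had 504 at an FDR below 0.05, 332 with the GC correction and 291 with block and GC correction together. The cause of these shifts was not tested.

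Of 36 log2 fold changes of members, 20 kept their sign under all 17 alternatives, and none of the 16 that did not was called; the largest of these was H1-4 at -0.49 in HERVH knockdown against WT. With 1 library left out, values ran in CHD7 knockout against WT from -0.022 to 0.50 for H1-3 and from -0.42 to 0.069 for H1-10. In HERVH knockdown against WT they ran from -0.40 to 0.10 for H1-1, from -1.40 to 0.0063 for H1-4 and from -1.03 to 0.18 for H1-5. In HERVH element deleted against WT they ran from -0.32 to 0.14 for H1-2, from -0.10 to 0.034 for H1-5 and from -0.41 to 0.072 for H1-10. In CHD7 knockout against HERVH knockdown they ran from -0.26 to 0.84 for H1-2, from -0.52 to 0.88 for H1-4, from -0.43 to 0.76 for H1-5 and from -0.14 to 1.26 for H1-10. In CHD7 knockout against HERVH element deleted H1-10 ran from -0.17 to 0.15. In HERVH knockdown against HERVH element deleted they ran from -0.18 to 0.31 for H1-1, from -0.98 to 0.22 for H1-5 and from -1.26 to 0.13 for H1-10. The GC correction, alone and with the block, gave 0.064 and 0.063 for H1-5 in HERVH element deleted against WT, 0.055 and 0.050 for H1-10 in CHD7 knockout against HERVH element deleted, 0.38 and 0.36 for H1-4 in CHD7 knockout against HERVH knockdown, and -0.0026 and -0.0078 for H1-1 in HERVH knockdown against HERVH element deleted. H1-4 in CHD7 knockout against HERVH knockdown was 3.7e-05 with DESeq2, 0.00083 with no filter and 0.0042 with genes above 1 CPM in at least 2 libraries. Summed H1 levels moved by less than 1 SD under RLE scaling; the sum with a further gene was not run.

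The labels give the groups the same replicate numbers. Deviations of same-numbered libraries correlated at -0.23 to -0.12 between CHD7 knockout and the other groups and at 0.29 to 0.43 among the others, over 12704 genes, so the numbers were not taken to pair the libraries. The replicate block changed no call of a member, gave 0.010 for H1-10 in CHD7 knockout against HERVH element deleted, and moved the genes called in CHD7 knockout against WT from 134 to 153. The block with the CHD7 knockout numbers crossed, chosen after seeing the data, called 207, with 0 of the 5 members. Over all alternatives, genes called ran from 26 to 424 in CHD7 knockout (134), from 2 to 825 in HERVH knockdown (51) and from 5 to 30 in HERVH element deleted against WT (7), from 78 to 624 in CHD7 knockout against HERVH element deleted (262), from 141 to 2217 in CHD7 knockout against HERVH knockdown (624) and from 2 to 1025 in HERVH knockdown against HERVH element deleted (48), with the main count in parentheses.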
